A study of Homo sapiens with 9 samples.

Results

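The 10 genes described here store neutral lipid in cells: CIDEB, CIDEC, PLIN2, PLIN3 and PLIN5, whose products sit on lipid droplets, DGAT1 and DGAT2, which make triglyceride, SOAT1 and SOAT2, which make sterol esters, and PNPLA2, which breaks triglyceride down. They are 10 of the 19775 genes that have a probe set annotated to that gene alone. The genes were picked by symbol with earlier results of these data known, and the probe set of each gene was selected on brightness, as the highest mean log2 signal over all 9 arrays. All 10 had a probe set above the filter on dim signals, as did 13056 genes in all. Expression was measured on oligonucleotide arrays in HepG2, a line derived from a human hepatocellular carcinoma. In the knockdown groups siRNA was directed at HNF4alpha together with HNF4gamma, nuclear receptors that bind DNA at liver and gut genes. The labels give 3 arrays each for knockdown1, knockdown2 and control. They do not state in what way the knockdown groups differ, what the control received, how long cells were treated or whether replicates were separate cultures. The p-values thus weigh differences between groups against the spread among arrays of a group, which may be technical only.

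A lipid droplet is a core of triglyceride and sterol ester under a single layer of phospholipid that carries coat proteins. In hepatocytes the same neutral lipid either waits in droplets or is loaded onto very low density lipoprotein for secretion, and enzymes at the droplet and the endoplasmic reticulum set that balance. Perilipins coat the droplet and control access of lipases. CIDE proteins act where droplets touch each other or, for CIDEB, where lipid passes to nascent lipoprotein.

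The values are scaled signals, a relative brightness on arrays brought to a common median of 14.1. Array medians differed by at most 1.28 times before this scaling. The ratio of 3' to 5' control signals ran from 0.897 to 0.957 for GAPDH and from 1.16 to 1.39 for beta-actin, with the highest beta-actin ratio in control replicate 3. All 12 hepatocyte markers lay above the array median on every array. Over both knockdowns 4 of them fell, APOA1 (-0.71), APOH (-0.61), TTR (-0.67) and TF (-0.76), and 0 rose. In knockdown1 5 fell and in knockdown2 4 fell. Of all tested genes 17.9% were called lower over both knockdowns, 19.0% in knockdown1 and 13.9% in knockdown2. The summed signal of the 12 markers was 49809 to 60618 in control, 42067 to 51037 in knockdown1 and 45900.3 to 49408 in knockdown2. HNF4G fell over both knockdowns (-0.92 on the log2 scale, SE 0.24, adjusted p = 0.00345 by limma). It fell in knockdown1 (-1.28, SE 0.28, adjusted p = 5.38e-04 by limma) and was not called in knockdown2 (-0.56, SE 0.28, adjusted p = 0.142 by limma). The knockdown2 arrays, at 24.4 to 41.9, still lay below every control, at 44.9 to 47.9. Knockdown2 and control arrays did not overlap for 39.7% of all tested genes. A dimmer HNF4G probe set passed the filter only through the controls, at 21.3 to 37.5, and lay below the median on all 6 knockdown arrays, so no test of it is given. HNF4A had no probe set annotated to it alone and was not analysed here. In these bulk extracts fewer cells of a type and less RNA per cell cannot be told apart. Among 9 adipocyte markers, ADIPOQ, LEP and PLIN1 lay below the median on every array, CFD lay above it on every array (15.9 to 39.8) and the other 5 on neither side throughout, and the summed signal was 64.5 to 103 in control, 95.7 to 103 in knockdown1 and 79.9 to 105 in knockdown2. Among 6 annotated macrophage markers, PTPRC, CD163 and MARCO lay below the median on every array, CD14 passed the filter only through the controls (16.7 to 31.9) and lay below the median on all 6 knockdown arrays, and the summed signal, nearly all from LYZ, was 2973 to 3925 in control, 2714 to 3458 in knockdown1 and 3369 to 4241 in knockdown2. The summed signal of 6 annotated stellate cell markers was 460.1 to 542 in control, 806 to 1035 in knockdown1 and 787 to 1014 in knockdown2, which follows ACTA2 (1.02, SE 0.13, adjusted p = 4.90e-07 by limma), while COL1A1 lay above the median on every array (46.3 to 73.2), LRAT below it on every array and the other 3 on neither side throughout. The part of these markers in the results was not tested.

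Over both knockdowns against control, 6 of the 10 genes fell, 2 rose and 2 did not pass the test. CIDEB, SOAT2 and CIDEC fell most, with group means between 4.85% and 10.2% of the control mean, DGAT1, DGAT2 and SOAT1 fell less, PLIN2 and PLIN3 rose, and PLIN5 and PNPLA2 were not called. Of all tested genes 32.6% were called by limma at an adjusted p under 0.05, 17.9% lower and 14.7% higher. The median log2 fold change was -0.84 over the 10 genes and -0.011 over all tested genes. In 7 of the 10, all but SOAT1, PLIN5 and PNPLA2, the 6 knockdown arrays did not overlap the 3 controls, against 20.9% of all tested genes. Since the genes were picked with earlier results known, these counts describe them and are not independent evidence for the group. The calls did not change with any array left out. That of SOAT1 ended with the knockdown arrays pooled (adjusted p = 0.225 by limma) and that of PLIN2 with probe sets averaged (adjusted p = 0.109 by limma).

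**Figure D1:**
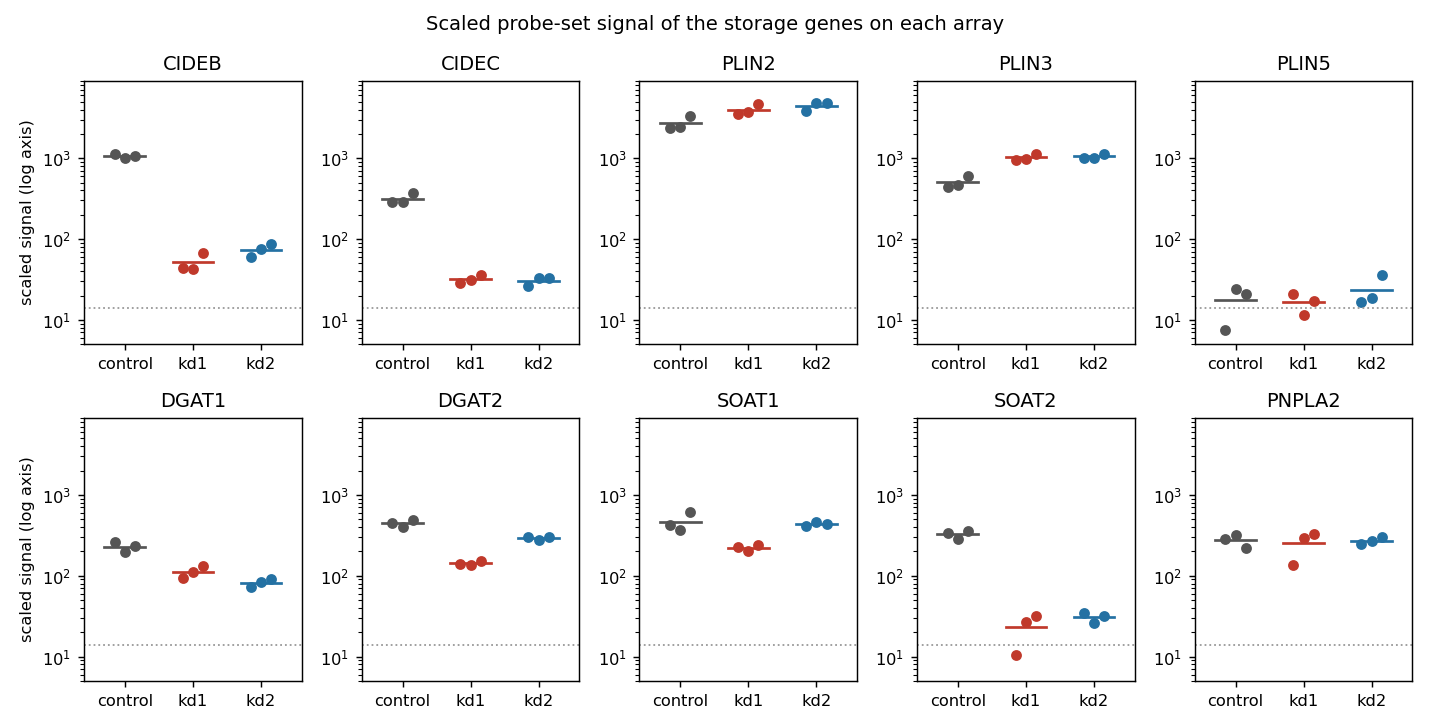
Scaled signal (log axis) of the brightest probe set of each gene on the 3 control, 3 knockdown1 (kd1) and 3 knockdown2 (kd2) arrays; points are arrays, bars are group means and the dotted line is the common median of 14.1. CIDEB, CIDEC and SOAT2 dropped from control means of 1060.0, 313 and 326 to means between 22.9 and 73.7.

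CIDEB, the hepatocyte member of the CIDE family, which helps load lipid onto very low density lipoprotein, showed the largest fall of the group. Its scaled signal was 1132, 993 and 1055 on the control arrays, 44.1, 42.5 and 67.6 on the knockdown1 arrays and 60.7, 74.3 and 86.2 on the knockdown2 arrays. No knockdown array came near a control. The group means were 1060.0 ± 69.7 (SD, n = 3) in control, 51.4 ± 14.0 (SD, n = 3) in knockdown1 and 73.7 ± 12.8 (SD, n = 3) in knockdown2, so that 4.85% and 6.95% of the control signal remained. The log2 fold change was -4.36 in knockdown1 (SE 0.18, adjusted p = 5.93e-16 by limma) and -3.83 in knockdown2 (SE 0.18, adjusted p = 7.99e-15 by limma). Over both knockdowns CIDEB held rank 3 among the falls of 13056 tested genes.

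CIDEC, which drives the fusion and growth of droplets and is best known from adipocytes and fatty liver, fell to a similar degree in the knockdown groups. Its signal was 287, 285 and 367 in control, 28.4, 31.3 and 36.3 in knockdown1 and 25.9, 32.6 and 32.9 in knockdown2. Every knockdown array lay far below every control, and the knockdown groups overlapped. Against control it changed by -3.23 in knockdown1 (SE 0.18, adjusted p = 1.69e-13 by limma) and by -3.30 in knockdown2 (SE 0.18, adjusted p = 1.83e-13 by limma). Knockdown1 minus knockdown2 was 0.068 (SE 0.18, adjusted p = 0.835 by limma, 95% interval -0.31 to 0.45). CIDEC held rank 14 among the falls over both knockdowns. CIDEA, the other CIDE gene, had signals no higher than 14.2 on any array and was not tested.

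The sequence before the annotated gene starts was searched because the targets are DNA-binding receptors. RefSeq start regions on GRCh38.p14 were used for 7 of the 10 genes, 9 starts in all, each with 250 bases before and 50 after the start. Those of DGAT1, DGAT2 and SOAT2, which all fell, were not searched. Both strands were searched for CAAAGTCCA, CAAAGGTCA and CAAAGTTCA, cores of HNF4 sites that differ from each other only in their middle letters, so that a match of one is no match of another at the same bases. Of the 9 regions 1 held a match, that of the downstream start of CIDEB, which has CAAAGTCCA on the opposite strand from 55 to 47 bases before the start. Among all 35116 regions of the same length in the table, 0.384% held CAAAGTCCA and 1.08% any of the 3. A match is a string of letters and not evidence of binding, and the absence of one in a window says nothing about the receptor. The 250 bases before 4 starts are shown to let the CIDEB match be seen beside another gene that fell and both that rose. Capitals mark the match.
CIDEB downstream start, chr14:24307978-24308227, minus strand: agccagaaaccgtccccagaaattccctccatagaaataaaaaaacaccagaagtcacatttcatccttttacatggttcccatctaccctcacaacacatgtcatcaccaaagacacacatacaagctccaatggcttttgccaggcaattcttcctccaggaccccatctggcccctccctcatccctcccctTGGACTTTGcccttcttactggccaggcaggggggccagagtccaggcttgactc
CIDEC upstream start, chr3:9880254-9880503, minus strand: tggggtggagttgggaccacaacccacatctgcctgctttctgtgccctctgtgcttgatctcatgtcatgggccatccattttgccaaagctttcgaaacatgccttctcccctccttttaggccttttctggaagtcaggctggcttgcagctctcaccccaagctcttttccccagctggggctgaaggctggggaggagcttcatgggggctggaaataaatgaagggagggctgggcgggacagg
PLIN2, chr9:19127493-19127742, minus strand: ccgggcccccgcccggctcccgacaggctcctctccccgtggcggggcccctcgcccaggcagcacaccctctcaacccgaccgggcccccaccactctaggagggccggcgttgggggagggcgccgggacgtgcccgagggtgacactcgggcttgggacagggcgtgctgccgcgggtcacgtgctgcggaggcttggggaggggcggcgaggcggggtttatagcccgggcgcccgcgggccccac
PLIN3, chr19:4867668-4867917, minus strand: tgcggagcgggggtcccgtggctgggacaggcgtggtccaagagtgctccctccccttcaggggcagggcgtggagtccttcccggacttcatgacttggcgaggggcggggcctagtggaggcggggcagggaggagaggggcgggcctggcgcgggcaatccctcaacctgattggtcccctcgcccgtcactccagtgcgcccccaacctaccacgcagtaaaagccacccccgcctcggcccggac

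PLIN2, the most widely expressed perilipin of hepatocytes and a common marker of droplet load, rose in both knockdown groups. Its signal was 2360.4, 2422 and 3353 in control, 3502, 3757 and 4635 in knockdown1 and 3823, 4805 and 4762 in knockdown2. Even the highest control array lay below the lowest knockdown array. On the log2 scale PLIN2 rose by 0.56 in knockdown1 (SE 0.14, adjusted p = 0.00344 by limma) and 0.73 in knockdown2 (SE 0.14, adjusted p = 3.02e-04 by limma). A dimmer PLIN2 probe set, at 7.59 to 36.0 over the 9 arrays, gave a difference of 0.30 (SE 0.40, adjusted p = 0.630 by limma over all probe sets kept). Averaging both probe sets ended the call over both knockdowns (0.47, adjusted p = 0.109 by limma), in knockdown1 (0.32, adjusted p = 0.353 by limma) and in knockdown2 (0.62, adjusted p = 0.0776 by limma), and a fit without the variance trend ended that in knockdown1 (adjusted p = 0.0519 by limma).

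PLIN3, a perilipin that binds small nascent droplets and otherwise sits in the cytosol, rose too. Its signal was 446, 465 and 594 in control, 945, 989 and 1141 in knockdown1 and 1017, 1008 and 1125 in knockdown2. The lowest knockdown array was clear of the highest control. The means were 502 ± 80.5 (SD, n = 3) in control, 1025 ± 103 (SD, n = 3) in knockdown1 and 1049.6 ± 65.2 (SD, n = 3) in knockdown2. On the log2 scale PLIN3 rose by 1.04 in knockdown1 (SE 0.14, adjusted p = 1.46e-06 by limma) and 1.07 in knockdown2 (SE 0.14, adjusted p = 1.30e-06 by limma). Neither perilipin was called between the knockdowns, with differences of -0.17 (SE 0.14, adjusted p = 0.427 by limma) for PLIN2 and -0.037 (SE 0.14, adjusted p = 0.886 by limma) for PLIN3.

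PLIN5, which ties droplets to mitochondria in oxidative tissues, could barely be measured. Of its 6 probe sets 2 passed the filter, and the brightest lay above the array median on 7 of 9 arrays and the next on 5. The closest probe set outside the filter lay above the median on 1 array. The brightest gave 7.46, 23.8 and 21.0 in control, 20.8, 11.4 and 17.1 in knockdown1 and 16.7, 18.8 and 35.8 in knockdown2. The groups overlapped, and the log2 fold change over both knockdowns was 0.25 (SE 0.37, adjusted p = 0.658 by limma, 95% interval -0.51 to 1.01), an interval that spans changes of either direction.

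**Figure D2:**
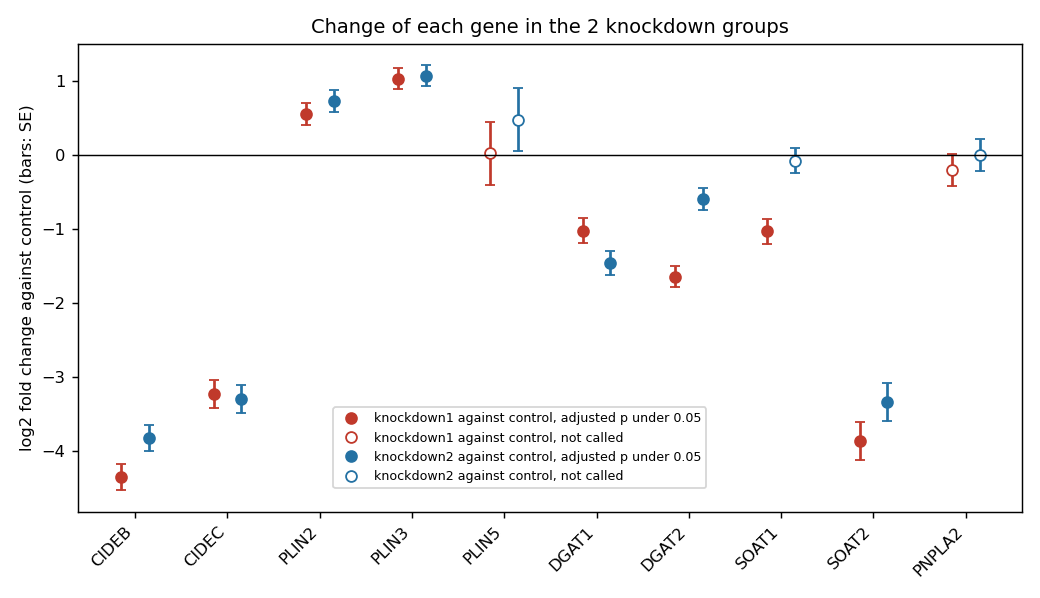
Log2 fold change of each gene in knockdown1 and knockdown2 against the shared control group, with SE as bars; filled points passed limma at an adjusted p under 0.05. CIDEB, CIDEC and SOAT2 lie between -3.23 and -4.36, PLIN2 and PLIN3 lie above 0 in both, and SOAT1 passed in knockdown1 and not in knockdown2.

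Triglyceride synthesis ends with DGAT1 or DGAT2, unrelated enzymes that add the last acyl chain to diacylglycerol, DGAT1 in the endoplasmic reticulum and DGAT2 also at the droplet surface. Both fell in both knockdown groups. The DGAT1 signal was 259.6, 197 and 232 in control, 94.0, 110.2 and 133 in knockdown1 and 73.0, 82.7 and 91.4 in knockdown2. The 3 groups did not overlap, with knockdown2 lowest. The log2 fold change was -1.03 in knockdown1 (SE 0.17, adjusted p = 1.92e-05 by limma) and -1.46 in knockdown2 (SE 0.17, adjusted p = 1.25e-07 by limma).

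The DGAT2 signal was 450.1, 401 and 489 in control, 139, 134 and 152 in knockdown1 and 303, 278 and 304 in knockdown2. Here too the 3 groups did not overlap, but knockdown1 was lowest. DGAT2 changed by -1.64 log2 units in knockdown1 (SE 0.15, adjusted p = 5.53e-10 by limma) and -0.59 in knockdown2 (SE 0.15, adjusted p = 0.00257 by limma). The dimmer DGAT2 probe set gave -1.55 (SE 0.15, adjusted p = 1.55e-07 by limma over all probe sets kept) and -0.89 (SE 0.15, adjusted p = 2.08e-04 by limma over all probe sets kept) in turn, so both probe sets fell in each group.

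Sterol esters are made by SOAT1 or SOAT2, which join a fatty acid to cholesterol. SOAT2 is the form of hepatocytes and enterocytes, and SOAT1 is found in most cells. The SOAT2 signal was 334, 288 and 356 in control, 10.4, 27.0 and 31.3 in knockdown1 and 34.8, 26.0 and 32.0 in knockdown2. The knockdown arrays lay far below the controls, and knockdown1 replicate 1 lay below the array median. The log2 fold change was -3.87 in knockdown1 (SE 0.26, adjusted p = 2.24e-12 by limma) and -3.34 in knockdown2 (SE 0.26, adjusted p = 7.74e-11 by limma), and SOAT2 held rank 9 among the falls over both. The mean signals in knockdown were 7.04% and 9.50% of control.

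The SOAT1 signal was 425, 364 and 616 in control, 227, 200.3 and 243 in knockdown1 and 406, 463 and 433 in knockdown2. The knockdown1 arrays lay below all others, while the knockdown2 arrays lay within the range of the controls. In knockdown1 SOAT1 fell (-1.03, SE 0.17, adjusted p = 1.46e-05 by limma). In knockdown2 the difference was -0.076 (SE 0.17, adjusted p = 0.792 by limma, 95% interval -0.42 to 0.26). Its other 2 probe sets gave -1.38 (SE 0.16, adjusted p = 1.19e-06 by limma over all probe sets kept) and -0.70 (SE 0.19, adjusted p = 0.00788 by limma over all probe sets kept) in knockdown1, and 0.18 (SE 0.16, adjusted p = 0.474 by limma over all probe sets kept) and -0.24 (SE 0.19, adjusted p = 0.391 by limma over all probe sets kept) in knockdown2. The value over both knockdowns, -0.55 (SE 0.14, adjusted p = 0.00342 by limma), averages these unlike groups, and pooling the 6 knockdown arrays as 1 group ended its call (adjusted p = 0.225 by limma). The value in knockdown2 changed sign without control replicate 3, the highest control, to 0.14 (adjusted p = 0.491 by limma).

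PNPLA2 encodes adipose triglyceride lipase, which takes the first acyl chain off stored triglyceride. Its signal was 288, 316 and 218 in control, 137, 292 and 326 in knockdown1 and 250.4, 266 and 299 in knockdown2. The groups overlapped, with 1 low array, knockdown1 replicate 1. The log2 fold change was -0.20 in knockdown1 (SE 0.22, adjusted p = 0.523 by limma, 95% interval -0.65 to 0.24) and 0.0013 in knockdown2 (SE 0.22, adjusted p = 0.998 by limma, 95% interval -0.44 to 0.45). Without knockdown1 replicate 1 the value in knockdown1 was 0.19 (adjusted p = 0.495 by limma). A dimmer probe set, at 11.6 to 41.7 over the arrays, showed a fall in knockdown1 (-0.90, SE 0.29, adjusted p = 0.0202 by limma over all probe sets kept) and gave -0.23 in knockdown2 (SE 0.29, adjusted p = 0.619 by limma over all probe sets kept). The probe sets of PNPLA2 thus disagree on knockdown1, and their mean fell there (-0.55, adjusted p = 0.0168 by limma).

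**Figure D3:**
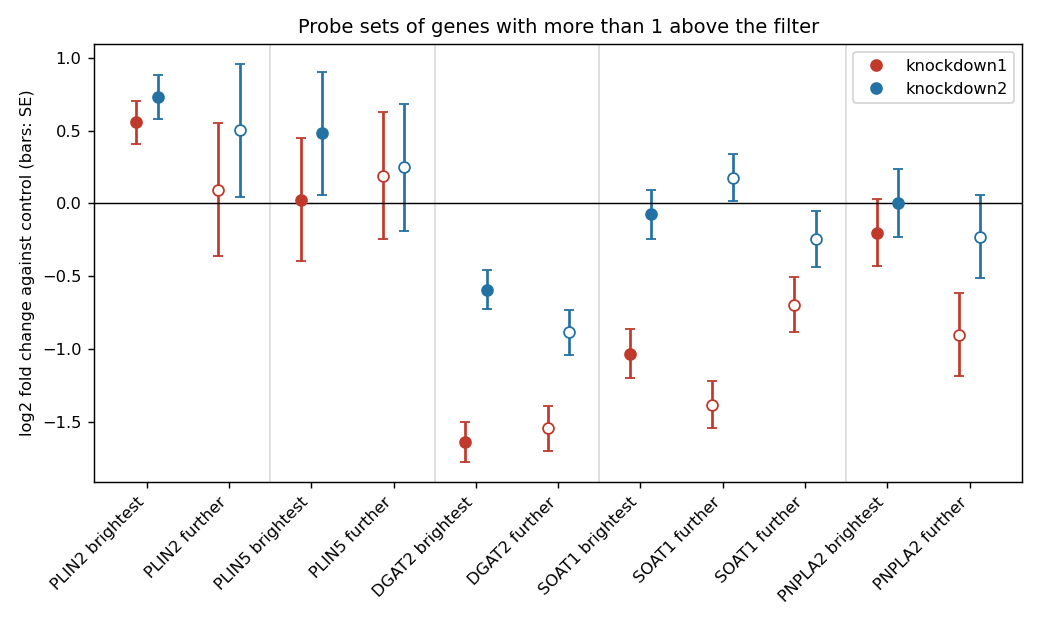
Log2 fold change against control with SE, for knockdown1 and knockdown2, of every probe set above the filter for genes with more than 1; filled points are the brightest probe set of a gene and open points the further ones. Both DGAT2 probe sets fell in both groups, and all 3 SOAT1 probe sets fell in knockdown1 with knockdown2 values from -0.24 to 0.18.

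The comparisons of knockdown1 and knockdown2 with control share the 3 control arrays, so their values are given side by side and their likeness is not a result. In knockdown1 6 of the 10 genes were lower and 2 higher than control, where 19.0% and 14.3% of all tested genes were called lower and higher and 33.3% in all. With the values as deposited, without the further scaling to a common median, the share of called genes that were lower moved from 57.1% to 45.8%. The calls of the 10 genes kept the same split of 6 lower and 2 higher. In knockdown2 5 were lower and 2 higher, where 13.9% and 13.7% of all genes were called lower and higher and 27.6% in all. The arrays did not overlap with control for 8 of the 10 genes in knockdown1 and 7 in knockdown2, against 39.8% and 39.7% of all tested genes. The median log2 fold change over the 10 genes was -1.03 in knockdown1 and -0.33 in knockdown2, and over all genes -0.0080 and 0.014.

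The direct difference between knockdown1 and knockdown2 takes in no control array, though the controls enter the estimate of the spread. In it 3 of the 10 genes, DGAT2, SOAT1 and CIDEB, were lower in knockdown1 and 0 were higher, where 26.6% of all tested genes were called, 16.1% lower and 10.5% higher in knockdown1. At an unadjusted p under 0.05 1 of the 10 was higher, DGAT1. DGAT2 differed by -1.05 (SE 0.15, adjusted p = 2.34e-06 by limma) and SOAT1 by -0.96 (SE 0.17, adjusted p = 5.83e-05 by limma), and for both the arrays of the groups did not overlap, as for 43.7% of all tested genes. CIDEB differed by -0.53 (SE 0.18, adjusted p = 0.0262 by limma) with arrays that overlapped. The CIDEB call ended without knockdown1 replicate 1 (adjusted p = 0.125 by limma), knockdown1 replicate 2 (0.136), knockdown2 replicate 2 (0.0721) or knockdown2 replicate 3 (0.154), and also without the filter (0.0624) and without the variance trend (0.101).

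DGAT1 ran the other way, higher in knockdown1 than in knockdown2 on every array, by 0.43 (SE 0.17, adjusted p = 0.0574 by limma), and missed the threshold. With the values as deposited it passed (0.55, adjusted p = 0.00442 by limma), as it did after quantile normalization (0.52, adjusted p = 0.00761 by limma), under a stricter filter (adjusted p = 0.0364 by limma) and without knockdown1 replicate 1 (0.0335), control replicate 2 (0.0379) or control replicate 3 (0.0380). Over all tested genes the median difference between the knockdowns was 0.084 as deposited and -0.033 after the scaling to a common median. That scaling also moved the share of called genes that were lower in knockdown1 from 42.9% to 60.6%. SOAT2 differed by -0.53 (SE 0.26, adjusted p = 0.135 by limma), and by -0.81 without knockdown1 replicate 3 (adjusted p = 0.0328 by limma). The other members of the group, CIDEC, the perilipins and PNPLA2, were not called.

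Proliferation genes also separated the knockdowns. Of 8 markers (MKI67, TOP2A, MCM2, MCM5, CCNB1, CDK1, BUB1 and PCNA), 8 fell in knockdown1 and 3 in knockdown2, and all 8 were lower in knockdown1 than in knockdown2. Of all tested genes 19.0% were called lower in knockdown1, 13.9% in knockdown2 and 16.1% in knockdown1 against knockdown2. The summed signal of the 8 markers was 8165 to 10577 in control, 2637 to 3335 in knockdown1 and 7448 to 8096 in knockdown2. The low knockdown1 values of DGAT2 and SOAT1 go with low values of these markers on the same arrays, and their part in those results was not tested.

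**Figure D4:**
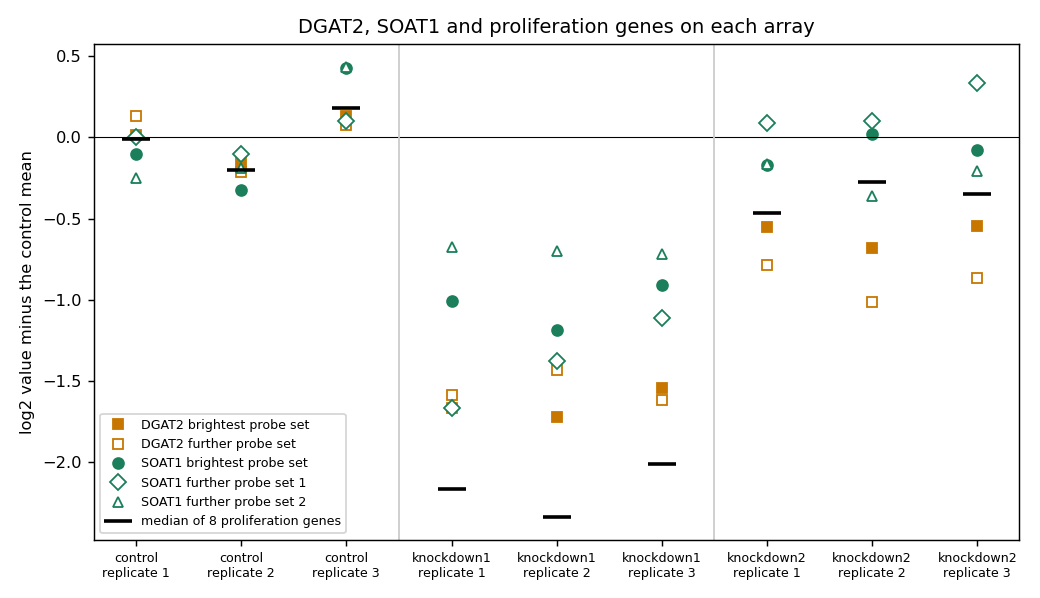
Log2 value minus the control mean on each of the 9 arrays for the 2 DGAT2 probe sets (squares), the 3 SOAT1 probe sets (circles, diamonds and triangles) and the median of 8 proliferation genes (bars). On the knockdown1 arrays the proliferation median lies between -2.34 and -2.01 and all 5 probe sets lie below their knockdown2 values.

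Likeness to other genes was taken as the root mean square difference between centred log2 values over the 9 arrays, among 13056 tested genes. The genes closest to CIDEB were FABP1, the liver fatty acid binding protein (0.31), APOC3, an apolipoprotein (0.42), and SULT2A1, a sulfotransferase of steroids and bile acids (0.43). Those closest to SOAT2 were SULT2A1 (0.32), SMIM24 (0.42) and CIDEB itself (0.43). CIDEC lay closest to SLC13A5, the plasma membrane citrate transporter (0.20), SLC6A4 (0.24) and EFCAB12 (0.29). DGAT1 lay closest to GJB1, a gap junction gene of hepatocytes (0.09), ATP6V0E2 (0.10) and PPP1R16A (0.13).

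DGAT2 lay closest to BLCAP (0.07), ABCA1, the cholesterol exporter (0.08), and TMPO (0.09), and SOAT1 to USP16 (0.08), DEK (0.08) and DUSP7 (0.09). PLIN2 lay closest to NDRG1, AXIN2 and RPL22L1 (0.10 each), and PLIN3 to TACC1 (0.08), ACTA2 (0.08) and ROCK2 (0.09). For PLIN5 the closest were FOXO4, SNCAIP and SAMD11 (0.27 to 0.28) and for PNPLA2 TMEM169, PARD6G-AS1 and IGFBP5 (0.12 to 0.16). Within the group PLIN2 and PLIN3 were the closest pair (0.22), then DGAT2 and SOAT1 (0.31) and CIDEB and SOAT2 (0.43). These distances rest on 9 arrays in 3 groups.

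The other genes of droplet storage were taken as 3 lists. Their counts stand beside 17.9% of all tested genes called lower and 14.7% higher over both knockdowns. The shares were 19.0% and 14.3% in knockdown1 and 13.9% and 13.7% in knockdown2. In the list of droplet coat and biogenesis, 21 genes of which 15 were tested, 7 fell and 4 rose over both knockdowns, with a median log2 fold change of -0.22. In knockdown1 4 fell and 2 rose, and in knockdown2 6 fell and 2 rose. The largest falls were those of TMT1A (-1.49, SE 0.14, adjusted p = 2.43e-09 by limma), a membrane methyltransferase found on droplets and formerly named METTL7A, and of FITM1 (-1.38, SE 0.18, adjusted p = 7.30e-07 by limma), an endoplasmic reticulum protein that helps package triglyceride into droplets. TMT1B, the paralog of TMT1A, fell over both (-0.87, SE 0.13, adjusted p = 8.43e-06 by limma), with -1.58 in knockdown2 and -0.17 in knockdown1, a call lost on pooling the knockdown arrays (adjusted p = 0.140 by limma). AUP1, a droplet protein of ubiquitin handling, rose (0.58, SE 0.13, adjusted p = 5.60e-04 by limma), as did HILPDA, a small inhibitor of PNPLA2 (0.51, SE 0.18, adjusted p = 0.0296 by limma). The HILPDA call ended with any 1 of 5 arrays left out, knockdown1 replicate 1 or 3, knockdown2 replicate 1 or control replicate 1 or 2 (limma adjusted p from 0.0567 to 0.161). Of the annotated but untested PLIN1, PLIN4 and CIDEA, PLIN1 lay below the median on every array.

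In the list of glycerolipid synthesis, 17 genes of which 11 were tested, 6 fell and 1 rose, with a median of -0.49. In knockdown1 5 fell and 1 rose, and in knockdown2 6 fell and 2 rose. GPD1, which makes glycerol 3-phosphate, had a signal of 52.9 ± 13.5 in the controls, 13.2 ± 7.57 with knockdown1 and 5.91 ± 2.04 with knockdown2 (SD, n = 3 each), with 1 knockdown array above the median. Its log2 fold change over both was -2.45 (SE 0.38). GPD1 passed the filter only through the controls, so no test of it is given. The counts of falls in this list include it. MOGAT2 and MOGAT3, acyltransferases that make diacylglycerol, fell by 1.72 (SE 0.22, adjusted p = 4.95e-07 by limma) and 1.38 (SE 0.25, adjusted p = 6.26e-05 by limma) on the log2 scale. GPAT3, a glycerol 3-phosphate acyltransferase, rose (0.78, SE 0.13, adjusted p = 3.84e-05 by limma).

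In the list of neutral lipid hydrolysis, 16 genes of which 11 were tested, 5 fell and 1 rose, with a median of -0.35. In knockdown1 4 fell and 1 rose, and in knockdown2 4 fell and 2 rose. LIPA, the lysosomal acid lipase, had a signal of 2425 ± 311 in the controls, 1673 ± 205 with knockdown1 and 757 ± 38.5 with knockdown2 (SD, n = 3 each). It fell over both (-1.10, SE 0.12, adjusted p = 2.48e-08 by limma). PNPLA3, a paralog of PNPLA2 known for its part in fatty liver, fell by 1.14 on the log2 scale (SE 0.34, adjusted p = 0.00989 by limma) from a dim 32.0 ± 7.50 (SD, n = 3) in control. Leaving out control replicate 1 ended that call (adjusted p = 0.0748 by limma). The phospholipase gene DDHD2 rose (0.53, SE 0.14, adjusted p = 0.00362 by limma). ABHD5, the coactivator of PNPLA2, is named after its values were seen. It fell by 0.51 on the log2 scale (SE 0.14, adjusted p = 0.00519 by limma), and the call ended without control replicate 1 (adjusted p = 0.0661 by limma) and with the mean over its 3 probe sets (-0.25, adjusted p = 0.188 by limma). G0S2, which inhibits PNPLA2, was not called (-0.50, SE 0.52, adjusted p = 0.512 by limma).

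Counted together, 24 of the 37 tested genes of the 3 lists were called over both knockdowns, 18 lower and 6 higher, against 32.6% of all tested genes. The 18 include GPD1, which passed the filter only through the controls. With the knockdown arrays pooled the count was 15, and 2205 of all 13056 tested genes were called in place of 4256. The lists were chosen with earlier results of these data known, so their counts are not independent evidence. Of the 13 list genes named, 5 had 7 further probe sets, of which 6 had the same sign and 1, of TMT1A, the opposite sign (0.24, SE 0.44, adjusted p = 0.736 by limma over all probe sets kept). Sign alone is a weak check. By the same test the 6 include those of HILPDA (adjusted p = 0.0382) and MOGAT2 (0.0356), which passed. They also include another of TMT1A (-0.97, adjusted p = 0.0803) and those of ABHD5 (-0.23, 0.458, and -0.014, 0.969), which did not. The remaining one is of GPD1, for which no test is given.

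**Figure D5:**
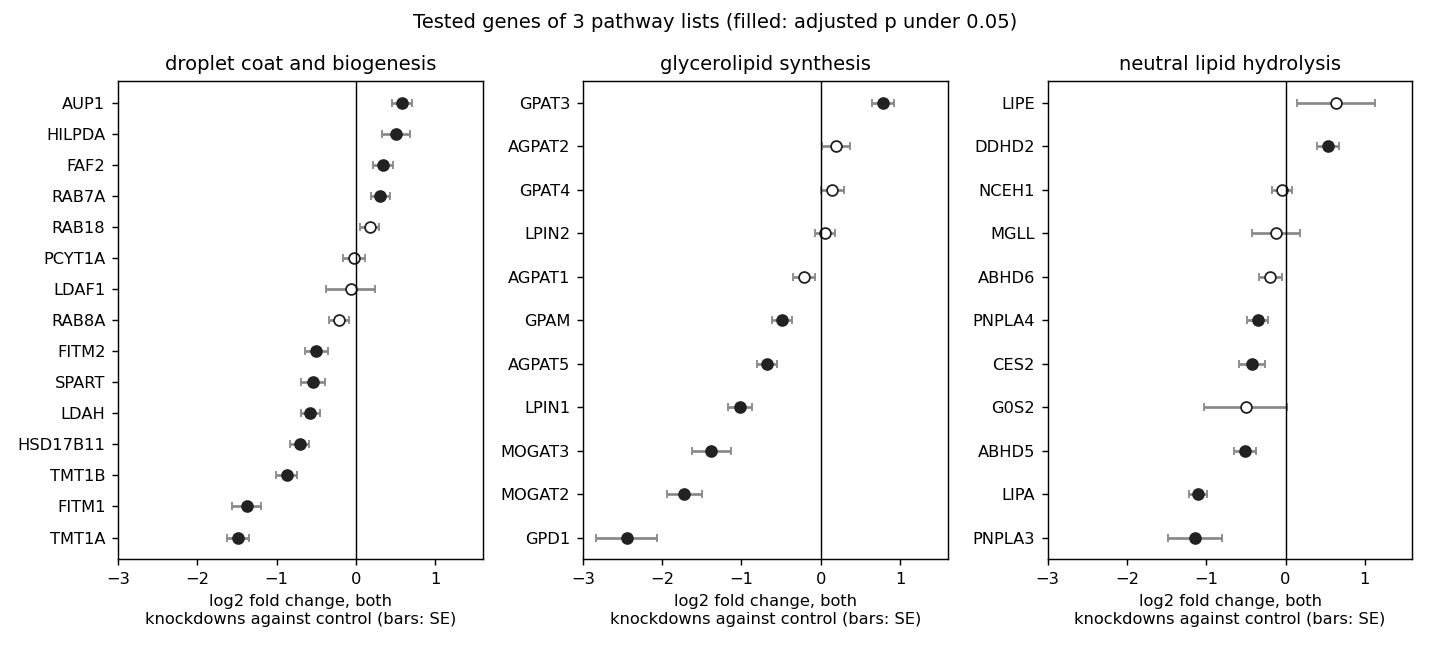
Log2 fold change over both knockdowns against control with SE for the tested genes of 3 lists (15, 11 and 11 genes); filled points passed limma at an adjusted p under 0.05. In each list more called genes lie below 0 than above it, 7 against 4, 6 against 1 and 5 against 1. The 6 include GPD1, which passed the filter only through the controls. Among all tested genes 17.9% were called lower and 14.7% higher.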

How the data were processed

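The 9 arrays hold linear signal intensities for 54675 probe sets, made by the authors with MAS5, per the submitters' processing notes (version not given in the sources used here). Arrays were multiplied by 0.898 to 1.15 to a common median, and log2(signal + 1.41) was used, a pseudocount of 0.1 of that median, which understates changes of dim genes. The platform annotation gave names, 41091 probe sets having 1 symbol, and 24565 of these exceeded their array's median on at least 3 of 9 arrays. No detection calls were used.

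A fit over all 13056 tested genes, each by its brightest probe set, used limma 3.58.1 in R 4.3.3 (3 groups, variance trend, two-sided, Benjamini-Hochberg over all genes tested, threshold 0.05), and probe sets were fitted likewise. The fit was tested on simulated data. The members, lists and motifs were chosen with earlier results of these data known. From each list the 3 called genes that changed most were named, plus at most 2 called genes opposite to the majority, and ABHD5 and G0S2 were named outside that rule. The number of arrays limits the precision. Alternatives were other scalings, pseudocounts and filters, probe-set means, no variance trend, a replicate block, pooled knockdowns and each array left out.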

Additional observations from a re-analysis of the deposited data

Results flagged for a closer look

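For 3 of the 10 genes the change differed between the knockdowns by the test of that difference itself, where 26.6% of all tested genes were called. DGAT2 was lower in knockdown1 than in knockdown2 by a log2 difference of -1.05 (adjusted p = 2.34e-06 by limma), in all 3 knockdown1 arrays against all 3 knockdown2 arrays. SOAT1 was lower by -0.96 (adjusted p = 5.83e-05 by limma), also without overlap. CIDEB was lower by -0.53 (adjusted p = 0.0262 by limma), with arrays that overlapped, and its call ended under 6 of 18 alternatives.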

How the results depend on the processing

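Of the 40 values of the 10 genes (10 in each of 4 comparisons), most kept their direction and call under the alternatives that gave a value. Counting each value under each alternative, 684 kept both, 11 lost the call, 9 gained it and 22 changed sign, none of them a called value. With the values as deposited PNPLA2 in knockdown2 was -0.031 and PLIN3 between the knockdowns 0.083. After quantile normalization these were -0.045 and 0.093, and PLIN2 between the knockdowns was 0.00071. With a pseudocount equal to the median PLIN5 in knockdown1 was -0.015. With probe-set means PNPLA2 in knockdown2 was -0.11. PLIN5 gave no value under the stricter filter. With each array left out in turn, PLIN5 ran from -0.22 to 0.53 over both knockdowns and from -0.45 to 0.30 in knockdown1. PNPLA2 ran from -0.26 to 0.094 over both, from -0.43 to 0.19 in knockdown1, from -0.16 to 0.11 in knockdown2 and from -0.44 to 0.19 between the knockdowns. SOAT1 in knockdown2 ran from -0.24 to 0.14, and between the knockdowns CIDEC ran from -0.039 to 0.15 and PLIN3 from -0.12 to 0.019. The causes were not tested, and all these values stayed uncalled.

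The count of called members stayed at 8, 8 and 7 over both knockdowns, in knockdown1 and in knockdown2 with any array left out, and ran from 2 to 4 between the knockdowns. With the knockdown arrays pooled, 2205 tested genes and 15 list genes were called in place of 4256 and 24. Replicate numbers were shared across groups. In deviations from the group means, pairs of equal number correlated at -0.02 to 0.13 and other pairs at -0.12 to 0.085. The labels do not say what a shared number marks, and weak correlations cannot settle it. The replicate block gave 8, 8, 7 and 4 called members, the added call being DGAT1 between the knockdowns (adjusted p = 0.0314 by limma), and 4905 called genes over both knockdowns.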
